A study of Mus musculus with 2 samples.

Results

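Fibroblasts that contained transcripts of Pcsk2 were described in single-cell libraries of mouse maxillary periodontium, the tissue that holds the upper teeth in the jaw. They were chosen by measured values: a barcode had to hold at least 200 genes, at most 20% mitochondrial counts, at least 5 counts of Dcn, at least 5 of Col1a1 and Col1a2 together, fewer than 10 of Krt5 and Krt14 together, no count of Ptprc or Pecam1, and at least 1 count of Pcsk2. The rule selected 547 of 33578 barcodes, of which 309 came from the 18112 barcodes of a library titled RP and 238 from the 15466 barcodes of a library titled 377P. Without the requirement for Pcsk2, the same rule selected 4373 cells, called gated fibroblasts here, and the 3826 of them with no count of Pcsk2 (2610 in RP, 1216 in 377P) are called Pcsk2-zero fibroblasts.

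Each title had 1 library, made with a droplet kit that reads the 3' ends of mRNA and counts molecules by their unique molecular identifiers (UMIs). The series concerns the resolution of periodontitis under diabetes, but the labels explain neither title and state no genotype, strain, age, treatment or number of animals, so neither library is treated as a control. The Pcsk2-positive cells had a median of 5157 UMIs in RP and 5884.5 in 377P, against 4786 and 5862.5 UMIs in Pcsk2-zero cells. The libraries shared 82 barcodes, and no Pcsk2-positive cell was among them. Scrublet called 7 of the 309 Pcsk2-positive cells of RP and 1 of the 238 of 377P doublets.

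Pcsk2 encodes prohormone convertase 2, a protease that cuts precursors of peptide hormones and neuropeptides inside secretory granules and that needs the chaperone 7B2 (Scg5) to mature. It is best known from neurons and endocrine cells rather than from fibroblasts. The genes proposed to accompany it have different roles: Dlg2 encodes a membrane-associated scaffold of synapses, Vcan the large hyaluronan-binding proteoglycan versican, Prg4 lubricin, the lubricant of joint surfaces, and Myoc myocilin, a secreted glycoprotein known from the drainage tissue of the eye. In the GRCm38 (mm10) annotation, Pcsk2 spans 270.1 kb at chr2:143546156-143816285, Dlg2 1973 kb at chr7:90476672-92449247 and Vcan 87.2 kb at chr13:89655312-89742509. Prg4 lies at chr1:150449412-150466165 and Myoc at chr1:162639155-162649693.

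Pcsk2 was found in a minority of fibroblasts in both libraries. In RP, 309 of 2919 gated fibroblasts (10.6%, exact 95% binomial interval 9.49 to 11.8%) had a count of it, and in 377P 238 of 1454 (16.4%, 14.5 to 18.4%). When each cell was thinned to 3000 UMIs, which left out 478 shallower cells of RP and 117 of 377P, the shares were 7.87% (6.83 to 9.01%) in RP and 13.1% (11.3 to 15.02%) in 377P. The share was thus lower in RP at equal depth, although with 1 library per title this compares 2 libraries only.

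The shares in fibroblasts were set against those in other cell types, whose cells were chosen to hold no count of Dcn. That choice may leave out cells carrying free RNA of fibroblasts, and its effect on the shares was not tested. Pcsk2 was counted in 0.494% of leukocytes of RP and 1.06% of those of 377P, at median depths of 2841.5 and 2834 UMIs. Endothelial cells had 0.654% in RP and 0.813% in 377P, at 2263 and 2628 UMIs. Keratinocytes, which were as deep as the fibroblasts with medians of 6109 UMIs in RP and 5695 in 377P, had 1.44% and 1.47%. Free RNA can give such counts in cells that do not express a gene. When all kept cells were clustered, the share was higher in some epithelial clusters: 3.72% of 2286 cells of 377P in a cluster led by Pappa and Col17a1, at 3.51 CPM, 2.90% of 414 cells of RP in one led by Serpinb3a, at 2.35 CPM, and 5.10% of 451 cells of 377P in one led by Scgb1b27, at 10.496 CPM. The share was higher still in a cluster led by Fstl5, Cntn4 and Calb2, in which 1.94% of cells were gated fibroblasts. Pcsk2 was counted in 16.667% of its 24 cells of RP and 18.987% of its 79 cells of 377P. These shares were not below those of the gated fibroblasts. Its level of Pcsk2 was lower, at 22.5 CPM in RP and 25.2 CPM in 377P, against 44.8 and 88.6 CPM in gated fibroblasts. Cells of all these clusters could hold counts of Dcn, and their depth was not matched to that of the fibroblasts.

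Most Pcsk2-positive cells held few molecules of it. In RP, 174 cells had 1 UMI, 62 had 2, 36 had 3 or 4 and 37 had 5 or more, up to 20. In 377P, the same classes held 98, 47, 50 and 43 cells, up to 37 UMIs in a cell. Cells of 1 UMI, just inside the rule, stood between Pcsk2-zero cells, just outside it, and cells of higher counts in the levels of Dlg2 and Vcan.

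The label of these cells names Prg4 and Vcan. Vcan was detected in 68.9% of the Pcsk2-positive cells of RP and 74.0% of those of 377P, against 51.9% and 53.0% of Pcsk2-zero cells. Dlg2 was detected in 24.3% and 26.5% of Pcsk2-positive cells of RP and 377P, against 10.3% and 8.22% of Pcsk2-zero cells. Prg4 was detected in 24.3% of Pcsk2-positive cells of RP and 19.7% of those of 377P, against 23.4% and 26.9% of Pcsk2-zero cells. Myoc was detected in 9.39% and 18.1%, against 7.05% and 16.3%. Prg4 and Myoc were therefore not general features of these cells, and they are called Pcsk2-positive fibroblasts here.

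Summed over cells, levels are given as counts per 1000000 UMIs (CPM), and each fold is followed by its exact 95% Poisson interval, which covers counting error only. Since these genes proposed the population, their values are a description. Dlg2 stood at 203 CPM in Pcsk2-positive cells of RP against 52.4 CPM in Pcsk2-zero cells of RP, a fold of 3.86 (3.40 to 4.39), and at 196 CPM against 22.0 CPM in 377P, a fold of 8.88 (7.31 to 10.8). Vcan stood at 657 CPM against 307 CPM in RP (2.14-fold, 2.002 to 2.28) and at 681 CPM against 243 CPM in 377P (2.80-fold, 2.59 to 3.03). Both genes were thus higher in Pcsk2-positive cells of each library.

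Prg4 and Myoc differed between the libraries. Prg4 stood at 491 CPM in Pcsk2-positive cells of RP against 242 CPM in Pcsk2-zero cells (2.03-fold, 1.88 to 2.19), and at 275 CPM against 260 CPM in 377P (1.06-fold, 0.952 to 1.18). The 10 cells richest in Prg4 held 56.3% of its UMIs among the Pcsk2-positive cells of RP and 77.3% in 377P. Myoc stood at 38.9 CPM against 53.3 CPM in RP (0.730-fold, 0.561 to 0.936) and at 180 CPM against 148 CPM in 377P (1.22-fold, 1.06 to 1.39). The 10 cells richest in Myoc held 69.1% of its 68 UMIs in Pcsk2-positive cells of RP and 57.0% of its 270 UMIs in 377P. The Prg4 and Myoc levels of the population thus rested on a small number of cells.

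The levels were next set against the number of Pcsk2 UMIs in a cell. Dlg2 had 52.4, 122, 222, 504 and 254 CPM in cells of RP with 0, 1, 2, 3 or 4, and 5 or more Pcsk2 UMIs, and 22.0, 85.6, 185, 280 and 359 CPM in 377P. Vcan had 307, 500, 638, 1066 and 994 CPM over the same classes in RP, and 243, 476, 565, 895 and 1012 CPM in 377P. Aspn, which encodes the small proteoglycan asporin of ligaments, ran the other way, with 652, 592, 451, 210 and 241 CPM in RP and 610, 433, 288, 150 and 164 CPM in 377P. Prg4 followed no such order. The median depth of the classes ranged only from 4786 to 5534 UMIs in RP and from 5412 to 6177.5 in 377P.

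**Figure D1:**
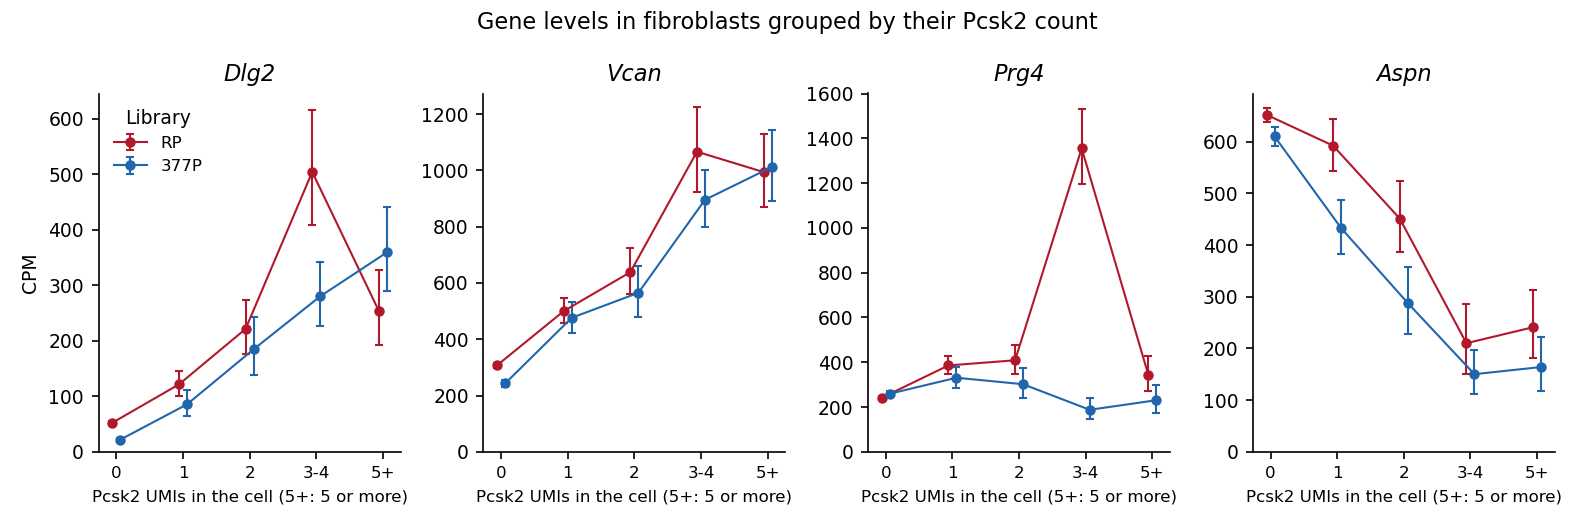
Levels (CPM, linear axes from 0) of Dlg2, Vcan, Prg4 and Aspn in gated fibroblasts grouped by their Pcsk2 count; each point pools a library's cells of that count, and bars are exact 95% Poisson intervals. Dlg2 and Vcan are higher, and Aspn lower, in every class with Pcsk2 counts than in cells without, while Prg4 peaks at 1355 CPM in cells of RP with 3 or 4 Pcsk2 UMIs.

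To see whether the Pcsk2-positive cells fell together, all gated fibroblasts were clustered without the genes of the rule, which gave 21 clusters. Dlg2, Vcan, Prg4, Myoc and Lrrtm4 were not left out, so they could shape the clusters. Their levels by cluster are therefore a description. The libraries were not integrated, and several clusters came almost wholly from 1 library, so such a cluster may be that library rather than a cell type. Cells with Pcsk2 were spread over several clusters but were frequent in few. Cluster 2, led by Lrrtm4, Dlg2 and Gpm6a, contained Pcsk2 in 73 of 181 cells of RP (40.3%, 33.1 to 47.9%) and 84 of 119 cells of 377P (70.6%, 61.5 to 78.6%). Cluster 4, led by Pcdh10, Sema3a and Apcdd1, contained it in 40 of 122 cells of RP (32.8%) and 49 of 108 of 377P (45.4%).

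The remaining Pcsk2-positive cells lay mainly in clusters of a single library. Cluster 17, led by Dcc, Cpne4 and Igfbp3, held 499 cells of RP, 114 of them with Pcsk2 (22.8%), and 4 cells of 377P. Cluster 0, led by the odorant-binding protein genes Obp1a, Obp2a and Obp1b, held 565 cells of 377P, 69 of them with Pcsk2 (12.2%), and none of RP. Outside these 4 clusters there were 82 Pcsk2-positive cells in RP and 36 in 377P. Clusters 2 and 4 were therefore the ones with a high share in both libraries, and cluster 2 held 23.6% of the Pcsk2-positive cells of RP and 35.3% of those of 377P.

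**Figure D2:**
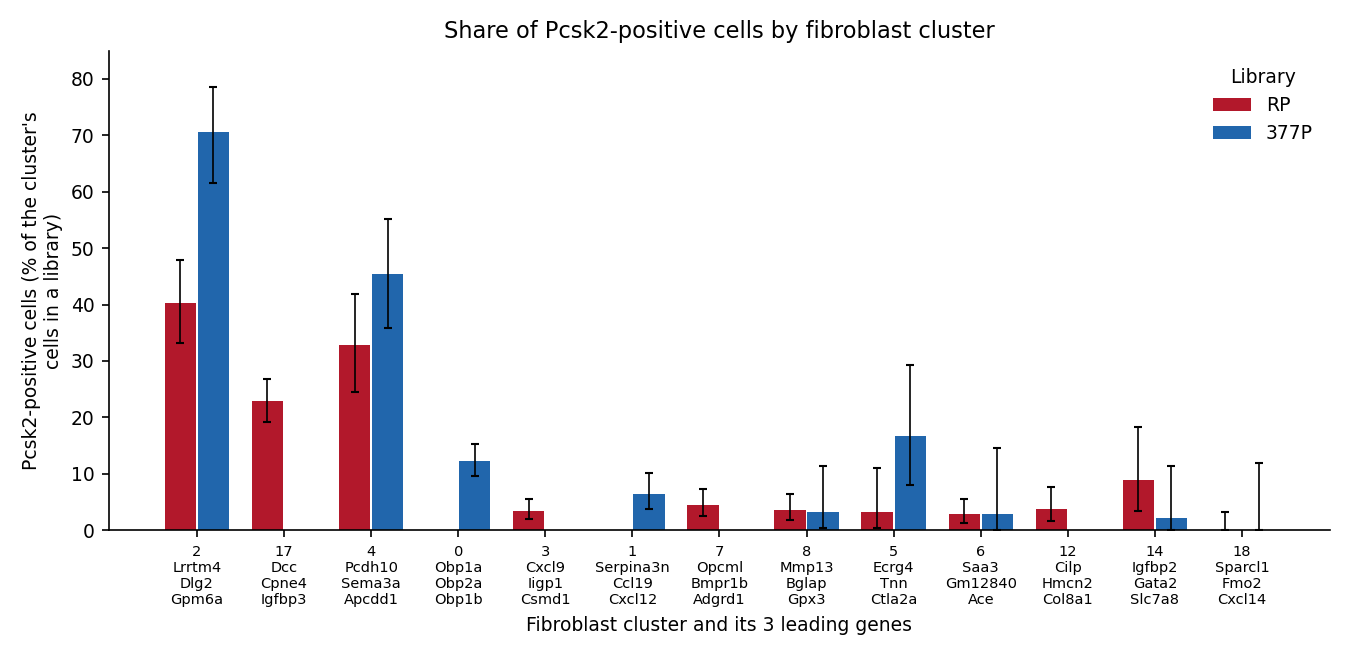
Share of Pcsk2-positive cells (percent of a cluster's cells in a library, with exact 95% binomial intervals) in the 13 fibroblast clusters of at least 100 cells, ordered by their number of Pcsk2-positive cells; a bar is drawn where the library gives at least 20 cells. Clusters 2 and 4 stand above 30% in both libraries, and cluster 17 of RP at 22.8%.

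In each library, Dlg2, Vcan, Prg4 and Myoc were higher in Pcsk2-positive cells of cluster 2 than in those of the other groups compared. Among Pcsk2-positive cells, Dlg2 had 805 CPM in cluster 2 of RP and 548 CPM in cluster 2 of 377P, but between 14.8 and 56.2 CPM in the cells of clusters 4, 17 and 0 and of the remaining clusters. Vcan had 1827 and 1446 CPM in cluster 2 of RP and 377P, and between 253 and 406 CPM elsewhere. Prg4 had 1867 CPM in cluster 2 of RP and 593 CPM in that of 377P, and between 62.3 and 157 CPM elsewhere. Myoc had 78.9 CPM in cluster 2 of RP, and between 7.45 and 41.6 CPM elsewhere in RP. In 377P it had 353 CPM in cluster 2, and between 5.22 and 165 CPM elsewhere. The remaining clusters were pooled here, and some of them were rich in these genes over all their gated fibroblasts. Prg4 had 2219 CPM in cluster 10, which held 1 Pcsk2-positive cell, against 1223 CPM in cluster 2, and Myoc had 1590 CPM in cluster 16, which held 6 Pcsk2-positive cells of RP and 2 of 377P, against 158 CPM in cluster 2.

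Pcsk2 itself was highest in cluster 2, with 684 CPM in RP and 967 CPM in 377P, and had 328 and 327 CPM in cluster 4. It had 431 CPM in the Pcsk2-positive cells of cluster 17 and 351 CPM in those of cluster 0. Apoe, the lipid carrier apolipoprotein E, followed cluster 2 as well, with 4331 CPM in RP and 6763 CPM in 377P, against 1125 and 441 CPM in cluster 4. Cluster 4 in turn was rich in the repulsive guidance cue Sema3a, with 324 CPM in each library, and in the Wnt antagonist Dkk2, with 283 CPM in RP and 246 CPM in 377P. Apoe, Sema3a and Dkk2 were picked for this description after their values had been seen.

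**Figure D3:**
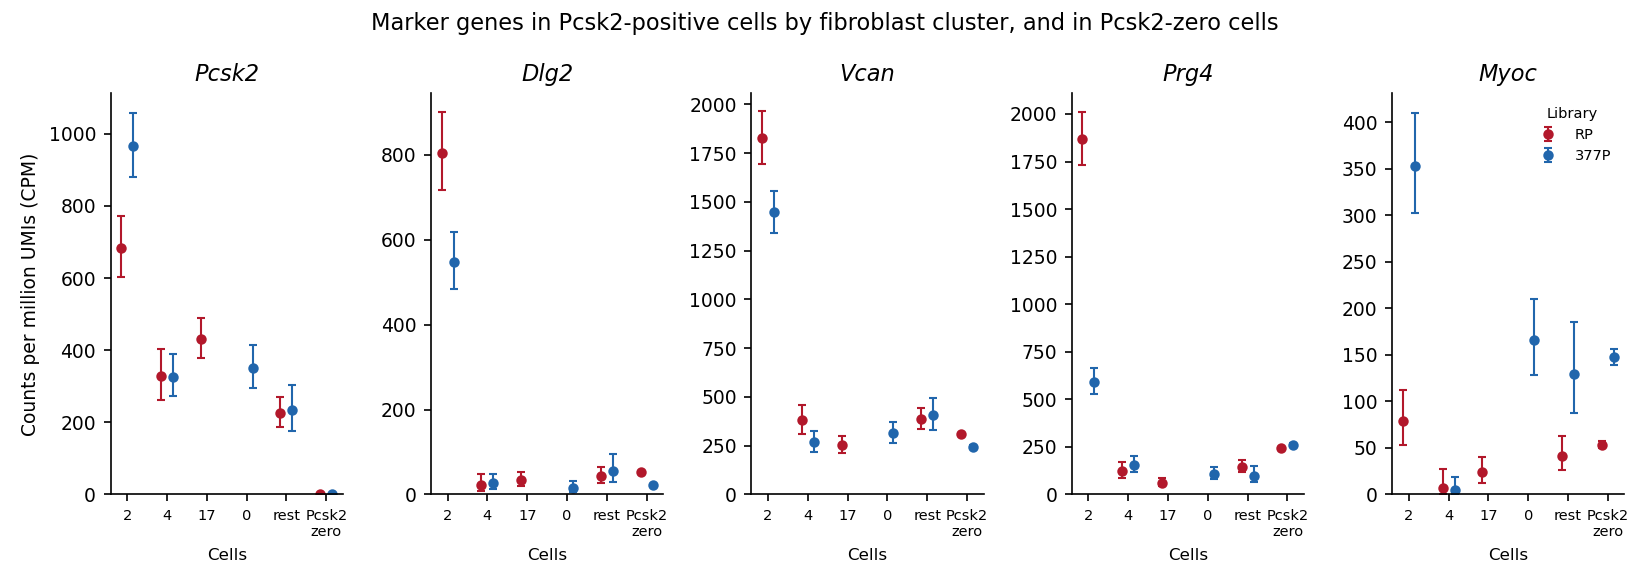
Levels (CPM, linear axes from 0, exact 95% Poisson intervals) of Pcsk2, Dlg2, Vcan, Prg4 and Myoc in Pcsk2-positive cells of clusters 2, 4, 17 and 0 and of all remaining clusters, and in Pcsk2-zero fibroblasts. Among Pcsk2-positive cells, Dlg2, Vcan, Prg4 and Myoc are highest in cluster 2 in both libraries. All other groups of these cells are at or below 56.2 CPM of Dlg2, 406 CPM of Vcan and 157 CPM of Prg4. Myoc has 353 CPM in cluster 2 of 377P and 165 CPM in cluster 0. Dlg2, Vcan, Prg4 and Myoc were not left out of the clustering.

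Across all genes, Pcsk2-positive cells were compared with Pcsk2-zero fibroblasts by edgeR's quasi-likelihood test on UMIs summed per library and class, with the library as a block. Of 13370 genes tested, 607 were higher (4.54%) and 488 lower (3.65%) in Pcsk2-positive cells at a Benjamini-Hochberg adjusted p under 0.05. The 4 sums leave 1 residual degree of freedom, so that the spread was borrowed across genes, and without the block 30 genes were called.

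The synaptic adhesion gene Lrrtm4 led the genes that were higher. It had 117 CPM in Pcsk2-positive cells of RP and 49.9 CPM in those of 377P, against 14.95 and 3.11 CPM in Pcsk2-zero cells, an edgeR log2 ratio of 3.21 ± 0.18 (SE, adjusted p = 1.67e-70). Gpm6a, a membrane glycoprotein of growing neurites, had 92.1 and 106 CPM against 21.5 and 8.51 CPM (log2 ratio 2.69 ± 0.15, edgeR adjusted p = 2.90e-64). Grid1, a glutamate receptor gene of the delta type, had 63.5 and 80.5 CPM against 20.2 and 14.3 CPM. Each of these genes was higher in both libraries. Among Pcsk2-positive cells, Lrrtm4 had 492 CPM in cluster 2 of RP and 126 CPM in that of 377P, and between 3.72 and 34.6 CPM elsewhere. In RP it had 3.72 CPM in cluster 4, 20.2 CPM in cluster 17 and 10.8 CPM in the remaining clusters, against 14.95 CPM in all Pcsk2-zero cells.

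Other named genes that were higher encode secreted factors, a protease or a receptor subunit. Corin, the protease that activates natriuretic peptides, had 27.5 CPM in Pcsk2-positive cells of RP and 45.2 CPM in those of 377P, against 4.56 and 5.81 CPM (log2 ratio 2.75 ± 0.25, edgeR adjusted p = 1.93e-24). Agt, the angiotensin precursor, had 21.7 and 75.8 CPM against 4.98 and 14.05 CPM (2.29 ± 0.21, edgeR adjusted p = 2.45e-25). Edn3, a ligand of endothelin receptors, had 33.2 and 42.6 CPM against 9.83 and 8.65 CPM. Nrg2, a ligand of ErbB receptors, had 25.7 and 49.9 CPM against 8.26 and 11.1 CPM. Cntfr, the receptor subunit for ciliary neurotrophic factor, had 63.5 and 85.8 CPM against 19.4 and 20.9 CPM. Among them Agt depended on cluster 2: without its cells the log2 ratio was 0.74 and no longer called.

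Further named genes that were higher were Coch, Tmem132c, Hpse, Crabp1 and Pax3. Coch, which encodes the matrix protein cochlin of the inner ear, had 53.8 CPM in RP and 97.8 CPM in 377P, against 17.3 and 20.5 CPM in Pcsk2-zero cells. Crabp1, a binding protein for retinoic acid, had 120 and 204 CPM against 40.9 and 50.9 CPM (log2 ratio 1.76 ± 0.12, edgeR adjusted p = 1.46e-43). Pax3, a transcription factor of the neural crest and muscle lineages, had 46.3 and 109 CPM against 19.2 and 24.05 CPM (1.74 ± 0.16, edgeR adjusted p = 7.50e-26). Hpse, the heparan sulfate cleaving enzyme heparanase, had log2 ratios of 1.79 in RP and 1.80 in 377P. Within the Pcsk2-positive cells, Coch and Tmem132c were not genes of cluster 2: Coch had 28.9 and 31.0 CPM there, against 101 and 157 CPM in cluster 4.

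The named genes that were lower had few UMIs in Pcsk2-positive cells. The osteocalcin genes Bglap and Bglap2, whose near-identical sequences may share reads, were all but missing: Bglap had 1 UMI in the Pcsk2-positive cells of each library, against 252 UMIs in Pcsk2-zero cells of RP and 65 in those of 377P. Bglap2 had 1 UMI in RP and 0 in 377P, against 147 and 74. Ibsp, bone sialoprotein, had 2.86 CPM in RP and 0 UMIs in 377P, against 14.2 and 12.4 CPM. Kera, the corneal and tendon proteoglycan keratocan, had 0 UMIs in RP and 2.66 CPM in 377P, against 2.35 and 20.9 CPM in Pcsk2-zero cells. Angptl7, a secreted angiopoietin-like protein, had 0.572 and 2.66 CPM against 6.62 and 21.3 CPM (log2 ratio -3.14 ± 0.50, edgeR adjusted p = 2.50e-08). For Agtr2, the type 2 receptor of angiotensin, the levels were 1.72 and 0.665 CPM against 12.3 and 10.1 CPM (-3.20 ± 0.54, edgeR adjusted p = 1.97e-07). The glutamate receptor gene Grin2a had no UMI in Pcsk2-positive cells of either library, which at a floor of 3 counts puts its log2 ratio at -1.93 or below in RP and -0.92 or below in 377P. Serpina3g, Prkg2 and Wnt10b complete the list of named genes that were lower. Several lower genes lead small fibroblast clusters. Bglap and Ibsp lead cluster 8, with 343 cells, of which 10 of RP and 2 of 377P had Pcsk2. Kera and Angptl7 lead cluster 10, with 32 cells, all of 377P, of which 1 had Pcsk2. How far the lower levels rest on such cells among the Pcsk2-zero fibroblasts was not tested.

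**Figure D4:**
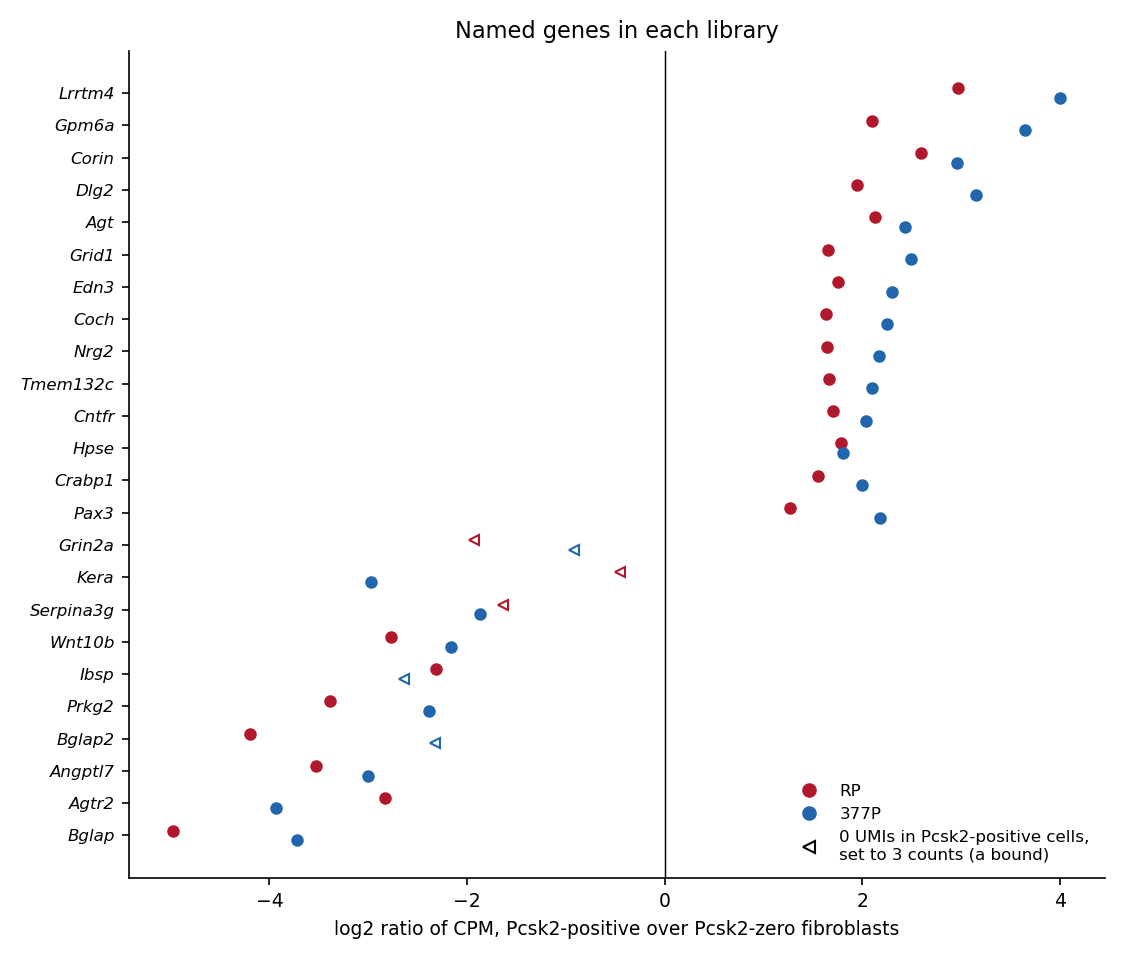
Log2 ratio of CPM (Pcsk2-positive over Pcsk2-zero fibroblasts) of 14 higher and 10 lower named genes in each library; open triangles mark genes with 0 UMIs in the Pcsk2-positive cells of that library, set to 3 counts. All 14 higher genes lie above 1 on this scale in both libraries.

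Genes around prohormone processing were read as a list. Of 20 listed, 12 passed the filter on low counts; 2 were higher, 1 was lower, and the median log2 ratio was 0.09, against -0.0024 over all genes tested, of which 4.54% were higher and 3.65% lower. Scg5, the chaperone of the Pcsk2 product, had 2 UMIs in Pcsk2-positive cells of RP and 0 in 377P, and Pcsk1, the related convertase, had 2 and 1. The exopeptidase Cpe, which trims the cut peptides, fell to 73.2 CPM in RP and 101 CPM in 377P, against 119 and 128 CPM in Pcsk2-zero cells (log2 ratio -0.54 ± 0.12). Cpd, a related enzyme of the Golgi, had 257 and 224 CPM against 201 and 162 CPM (0.39 ± 0.11, edgeR adjusted p = 0.0044). At this depth the usual partners of the convertase were thus at or near 0 for Scg5 and present for Cpe and Cpd.

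Of the precursor genes listed as neuropeptides and hormones, 6 of 18 passed the filter. Of these, 2 were higher and 1 lower, where 4.54% and 3.65% of all genes were. Tac1, the precursor of substance P, rose to 101 CPM in RP and 157 CPM in 377P, against 56.4 and 100 CPM in Pcsk2-zero cells (0.72 ± 0.12, edgeR adjusted p = 1.5e-07). Agt was the other gene that was higher, and Nts, the neurotensin precursor, was lower, with 6.29 and 6.65 CPM against 27.6 and 12.2 CPM. Pomc, Pdyn, Gcg, Vip and Gal had no UMI in the Pcsk2-positive cells. Penk, the enkephalin precursor, had 27.5 and 17.3 CPM against 20.1 and 15.5 CPM and did not pass the test.

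Guidance and neuronal adhesion genes were frequent among the calls. Of 42 tested, 15 were higher and 3 lower, with a median log2 ratio of 0.25, where 4.54% and 3.65% of all genes were. Cntn4, a contactin of axons, had 30.9 CPM in RP and 10.6 CPM in 377P, against 4.41 and 3.24 CPM (2.43 ± 0.31, edgeR adjusted p = 4.51e-13). Its UMIs lay in different clusters, with 45 in cluster 2 and 7 in cluster 4 of RP, but 0 and 15 in those of 377P. Ntm, the adhesion protein neurotrimin, had 48.1 and 57.2 CPM against 19.4 and 14.9 CPM. Sema3a had 165 and 162 CPM against 58.5 and 58.1 CPM (1.46 ± 0.12, edgeR adjusted p = 6.2e-32). The lower genes included Sema3e and Tenm3.

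Craniofacial patterning factors also moved in both directions. Of 40 tested, 13 were higher and 8 lower, with a median of 0.25, where 4.54% and 3.65% of all genes were. Those that were higher included Pax3, Foxd1, Twist1, Prrx2, Pax9, Alx1 and Osr2. Foxd1, a forkhead factor of mesenchyme, had 74.96 and 89.1 CPM against 40.5 and 39.0 CPM (1.01 ± 0.14). Among the lower were Msx1, a homeobox factor of the jaw, with 20.6 and 41.2 CPM against 46.0 and 54.6 CPM, and Ebf2, a factor known from fat cell progenitors, with 22.9 and 5.32 CPM against 56.8 and 67.1 CPM (-2.09 ± 0.20, edgeR adjusted p = 1.92e-23).

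Matrix genes were read by family, where 4.54% of all genes were higher and 3.65% lower. Of 12 small leucine-rich proteoglycans tested none was higher and 7 were lower, namely Lum, Fmod, Ogn, Kera, Omd, Aspn and Chad, with a median of -0.61. Fmod, fibromodulin of tendon and ligament, had 61.2 CPM in Pcsk2-positive cells of RP and 35.3 CPM in those of 377P, against 79.4 and 330 CPM. Kera and Fmod are leading genes of cluster 10, which came from 377P alone. Bgn, biglycan, had 1434 and 1680 CPM against 1326 and 1374 CPM and did not pass the test. Of the collagens, 2 of 21 were higher (Col14a1 and Col15a1) and 6 lower, among them Col11a1, with 40.6 and 23.3 CPM against 117 and 119 CPM (-1.89 ± 0.15). Of 36 matrix glycoproteins 10 were higher and 10 lower. Mfap4, a protein of elastic fibres, had 789 and 868 CPM against 355 and 313 CPM (1.29 ± 0.09), while Smoc2 had 29.2 and 26.6 CPM against 80.0 and 117 CPM.

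Genes of hyaluronan and its proteoglycans split as well. Besides Vcan, which was used to propose the cells, Itih5 and Adamts9 were higher, while Has1, Cd44, Adamts4 and Adamts5 were lower, out of 17 tested. Has1, a hyaluronan synthase, had 608 and 580 CPM against 730 and 808 CPM, and Adamts5, a protease that cuts versican and aggrecan, had 56.1 and 81.8 CPM against 110 and 133 CPM (-0.86 ± 0.13). Among scaffold genes of the Dlg type, 3 of 20 were higher (Mpp7, Tjp1 and Dlg2, the last used to propose the cells) and none lower, where 4.54% and 3.65% of all genes were.

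Lists of bone, ligament and inflammatory genes held more lower than higher calls, where 4.54% of all genes were higher and 3.65% lower. Of 7 osteoblast genes tested, 5 were lower and none higher, with a median of -2.07. Of the lower ones, Bglap, Ibsp and Alpl are leading genes of cluster 8. Runx2, the master regulator of osteoblasts, had 40.1 CPM in RP and 15.3 CPM in 377P, against 95.3 and 58.9 CPM (-1.50 ± 0.16). Of 12 tendon and ligament genes, 2 were higher (Postn and Chodl) and 5 lower. Of 25 chemokines and cytokines, 2 were higher (Ccl19 and Lcn2) and 11 lower, with a median of -0.45. Cxcl1, a neutrophil attractant, had 704 and 603 CPM against 1262 and 1366 CPM (-1.03 ± 0.09, edgeR adjusted p = 1.04e-26), and Ccl2, a monocyte attractant, 2201 and 1562 CPM against 2282 and 2996 CPM.

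Growth factor genes gave mixed counts, beside 4.54% of all genes higher and 3.65% lower. The bone morphogenetic protein genes Bmp2 and Bmp4 were the 2 higher ones of 22 genes of the TGF-beta axis, and 7 were lower. Bmp2 had 333 CPM in RP and 318 CPM in 377P, against 175 and 181 CPM (0.85 ± 0.10, edgeR adjusted p = 1.32e-14). Of 23 secreted Wnt and BMP modulators, 5 were higher, among them Dkk2, Fst, Rspo1 and Rspo3, and 3 lower (Sfrp2, Sfrp4 and Chrdl1). Igf1, Igfbp3, Irs1 and Irs2 were higher of 13 genes of the insulin-like growth factor axis, and Igfbp5 was lower, with 769 and 562 CPM against 1893 and 1874 CPM (-1.53 ± 0.09). No cell cycle gene of 17 was called in either direction by edgeR.

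Some technical measures moved with the comparison. The genes that were higher had a median span in the genome of 65.0 kb and those that were lower of 23.4 kb. The median over all genes tested was 25.5 kb. Spans over 100 kb were found for 38.7% of the higher genes and 24.4% of the lower ones, against 15.4% of all. Malat1, a nuclear RNA, stood at 15939 CPM in Pcsk2-positive cells of RP and 14115 CPM in those of 377P, against 13535 and 11775 CPM, and ribosomal protein genes made up 11.05% and 10.8% of UMIs against 12.3% and 12.9%. The part of these measures in the result was not tested. Schwann cell markers summed to 204 CPM in RP and 192 CPM in 377P, against 172 and 122 CPM. Cdh19 and Ncam1 were called higher out of 7 tested, where 4.54% of all genes were higher and 3.65% lower. None of the 9 listed was at 0, and Sox10, their defining factor, had 1 UMI in each library. Neuronal markers summed to 43.5 and 38.6 CPM against 31.5 and 35.8 CPM, with Rbfox3 and Nefl at 0. Of 4 neuronal markers tested Syt1 was called higher, beside the same shares over all genes. It had 14.3 CPM in Pcsk2-positive cells of RP and 1.996 CPM in those of 377P, the latter resting on 3 UMIs. In Pcsk2-zero cells it had 2.92 and 3.51 CPM.

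Pcsk2-positive fibroblasts were next compared with the fibroblast classes most like them. The class called Pi16 fibroblasts here was the 927 gated fibroblasts with Pi16 and without Aspn or Pcsk2 (624 in RP, 303 in 377P). No other marker of the Pi16 population known from many tissues was required, and 65.5% of Pcsk2-zero cells of RP and 65.2% of 377P held Pi16. Ligament-type fibroblasts were the 605 with Postn and Aspn and without Pi16 or Pcsk2 (430 in RP, 175 in 377P). Against Pi16 fibroblasts, 295 of 11157 genes were higher (2.64%) and 255 lower (2.29%), by edgeR with the same adjustment. Against ligament-type fibroblasts, 433 were higher (3.88%) and 437 lower (3.92%). Both comparisons share the Pcsk2-positive sums, so their values are given side by side.

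Against Pi16 fibroblasts the genes named as higher were Coch, Agt, Corin, Nlgn1 and Lrrtm4. Coch had 53.8 CPM in Pcsk2-positive cells of RP and 97.8 CPM in those of 377P, against 13.9 and 9.92 CPM in Pi16 fibroblasts (2.50 ± 0.26, edgeR adjusted p = 8.4e-06). Nlgn1, the synaptic adhesion protein neuroligin 1, had 110 and 114 CPM against 26.5 and 22.2 CPM (2.17 ± 0.19, edgeR adjusted p = 2.5e-06). Genes named as lower were the chemokine gene Cxcl13, the transcription factor gene Gata6 and Ifi207, Ifi204 and Ifi211, members of an interferon-inducible family of similar sequences among which reads may be shared. Gata6 had 4.58 and 1.33 CPM against 22.8 and 20.4 CPM, and Ifi207 22.9 and 18.0 CPM against 90.4 and 110 CPM. Postn, periostin of ligament and wound matrix, had 1822 and 2123.5 CPM in Pcsk2-positive cells against 698 and 672 CPM in Pi16 fibroblasts. The Pi16 class left out cells with Aspn, which 58.9% of Pcsk2-positive cells of RP and 48.7% of those of 377P held. The part of this choice in the Postn values was not tested.

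Against ligament-type fibroblasts Lrrtm4, Corin, Gpm6a, Slc6a2 and Dlg2 were named as higher. Slc6a2, the noradrenaline transporter, had 72.7 CPM in Pcsk2-positive cells of RP and 83.8 CPM in those of 377P, against 5.59 and 14.0 CPM (3.17 ± 0.26, edgeR adjusted p = 4.0e-07). Genes named as lower were Bglap2, Bglap, Ibsp, Mmp13 and Fat3. Mmp13, a collagenase of bone and inflamed tissue, had 10.9 and 1.996 CPM against 151 and 283 CPM (-4.93 ± 0.32, edgeR adjusted p = 2.2e-08). Like Bglap and Ibsp, Mmp13 is a leading gene of cluster 8. Tnn, tenascin of the W type, had 18.9 and 24.6 CPM against 181 and 239 CPM, and Col11a1 40.6 and 23.3 CPM against 372 and 323 CPM. Postn, which the ligament-type class required, had 1822 and 2123.5 CPM in Pcsk2-positive cells against 2163 and 1690 CPM. Pi16 itself was detected in 84.1% of Pcsk2-positive cells of RP and 81.5% of those of 377P, against 65.5% and 65.2% of Pcsk2-zero cells.

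Between the libraries no test was possible, since each title had 1 library. Among 8815 genes with at least 20 UMIs in the Pcsk2-positive cells of a library, 295 were at least 2-fold higher in RP (3.35%) and 180 at least 2-fold higher in 377P (2.04%). A gene could enter through either library alone, and a minimum of 50 UMIs left 114 and 46. Markers of other tissue differed between the libraries as well: 16 gland and nasal genes summed to 15825 CPM in Pcsk2-positive cells of RP and 2614 CPM in those of 377P, and to 17230 and 2868 CPM in Pcsk2-zero cells. Their part in the counts was not tested. The 15 genes named here passed a guard that removed those whose level in another cluster was over 5 times as high.

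Genes that lead cluster 17 were among those higher in RP. Dcc, a netrin receptor, had 96.1 CPM in Pcsk2-positive cells of RP and 23.3 CPM in those of 377P (4.13-fold, 2.85 to 6.13). Pdgfd, a platelet-derived growth factor, had 61.2 CPM in RP and 14.0 CPM in 377P (4.38-fold, 2.73 to 7.37). Gpr39, Stac, Cpne4, Lrrtm4 and Fmnl2 were also named, with folds of 2.02 to 3.53. Dcc had 198 CPM and Cpne4 115 CPM in the 114 Pcsk2-positive cells of cluster 17, and 5.26 CPM each in those of cluster 2 of RP. In cluster 2 of 377P they had 2.07 and 8.26 CPM. In cluster 4, Dcc had 101 CPM in RP and 23.5 CPM in 377P. Cpne4 had 33.5 and 5.22 CPM there, on 9 and 2 UMIs.

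Higher in 377P were Myoc, Cemip, Agt, Rorb, Thbs4, Pax3, Mmp3 and Nr4a1. Myoc had 38.9 CPM in Pcsk2-positive cells of RP and 180 CPM in those of 377P, a fold of 4.62 for 377P over RP (3.53 to 6.12), and it differed in the same direction in Pcsk2-zero cells, with 53.3 and 148 CPM. Agt had 21.7 CPM in RP and 75.8 CPM in 377P (3.49-fold, 2.40 to 5.18, for 377P over RP). Cemip, a hyaluronan-degrading protein, had 32.0 CPM in RP and 110 CPM in 377P, and Pax3 46.3 and 109 CPM. Nr4a1, an immediate early nuclear receptor, had 716 CPM in RP and 1278 CPM in 377P (1.79-fold, 1.66 to 1.92, for 377P over RP). Thbs4, a thrombospondin of tendon, had 184 and 396 CPM.

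The library differences were also read within the clusters that both libraries shared. In cluster 2 alone, the log2 ratio of RP over 377P was -2.16 for Myoc, -1.56 for Agt, 1.96 for Lrrtm4 and 1.65 for Prg4. For Mmp3 it was 0.29 there and -0.84 in cluster 4, against -0.96 over all Pcsk2-positive cells, and for Cemip it was -3.88 in cluster 2 and 0.67 in cluster 4. Of the 14 genes read in cluster 2, 11 moved by more than their counting error from the value over all Pcsk2-positive cells. Vcan and Dlg2 differed little between the libraries over all Pcsk2-positive cells, with log2 ratios of -0.05 and 0.05.

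**Figure D5:**
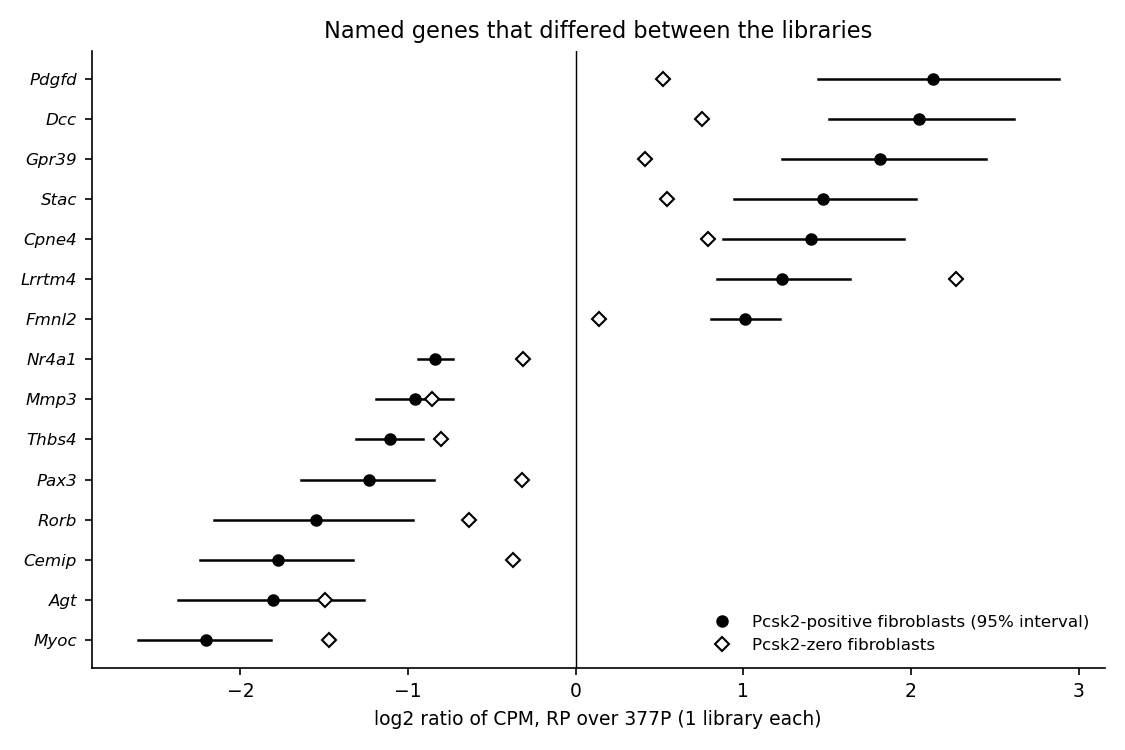
Log2 ratio of CPM, RP over 377P, of the 15 named genes in Pcsk2-positive fibroblasts (filled, with exact 95% intervals that cover counting error only) and in Pcsk2-zero fibroblasts (open). In all 15 genes the ratio has the same sign in both classes of cells, and Lrrtm4 is the gene of this set whose ratio is farther from 0 in Pcsk2-zero cells.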

How the data were processed

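The deposited matrices hold raw UMI counts per gene and barcode with no normalisation, written by Cell Ranger 7.0.1 per the file headers. Reads were placed on mm10, and STAR is also listed, per the submitters' processing notes. Whether intronic reads were counted, and on which annotation, is not given in the sources used here. Summed counts were tested with edgeR 4.0.16 (TMM, filterByExpr, library as block; DESeq2 1.42.0 as alternative), and adjusted p-values run over all genes tested. Genes used by the rule were left out of the counts of calls. On simulated counts for this comparison (13277 genes) edgeR recovered 44.8%, 89.6% and 98.5% of genes changed 1.5-, 2- and 4-fold, with 4 false calls. The simulation gave each gene the same share of counts in both libraries and the common dispersion that the fit had estimated. Changed genes were drawn from well-counted ones only. These figures therefore do not measure the error of the calls in the real data. Clustering used Scanpy 1.11.5 (2000 variable genes, 30 components, Leiden at resolution 1), and doublets were called with Scrublet at an expected share of 12% and kept in the main values. The sums held 1747704 UMIs of Pcsk2-positive cells in RP and 1503181 in 377P, which sets their counting error. Coordinates were matched by Ensembl identifier to GENCODE vM21 (GRCm38).

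Named genes had to be called with the same sign in both libraries, to have at least 100 UMIs in the higher class, and to reach at least 20% of their highest level in any cluster of other cells; the 15 highest and 10 lowest by log2 ratio were named, 5 in each direction for the like classes, and between libraries the 8 in each direction, with at least 50 UMIs and 50 CPM, whose interval lay farthest from 1. Some genes that this rule or a list holds are not reported here. Other genes given as examples of a list were picked after their values were seen, and the limit set by clusters of other cells was not applied to them. The cells and lists were chosen with earlier results of these data known. P-values rest on how far the difference between classes varied between the 2 libraries, a spread largely pooled over genes rather than measured for each gene. Differences between the libraries that both classes share are taken out by the block. The 2 libraries are not replicates of a condition.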

Additional observations from a re-analysis of the deposited data

Results flagged for a closer look

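Myoc differed in direction between the libraries: its log2 ratio of Pcsk2-positive over Pcsk2-zero fibroblasts was -0.455 in RP and 0.2814 in 377P, and the counting interval did not include 0 in either library. That interval covers counting error only, not the spread between cells. The 10 cells richest in Myoc held 69.1% of its UMIs in Pcsk2-positive cells of RP and 57.0% in those of 377P. The difference in direction was not tested, since each title has 1 library.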

How the results depend on the processing

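Against Pcsk2-zero fibroblasts, 607 genes were higher and 488 lower. DESeq2 gave 194 and 195, of which 365 were shared with edgeR. Without the replicate block 21 and 9 were called, with Pcsk2 of at least 2 UMIs 393 and 308, and with Pcsk2-zero cells matched on depth 203 and 185; every gene called in both fits kept its sign, but 3 genes called above had the other sign, uncalled, with at least 2 UMIs of Pcsk2, 1 with matched depth and 5 with a gate of 20 counts. Without cluster 2, an alternative chosen after seeing the data, 319 were lower, and 627 of the 628 shared calls kept their sign, while 13 genes called above took the other sign. Prg4 reversed to -0.96 on the log2 scale without cluster 2 and to -0.21 with a gate of 20 counts; the cause was not tested. Dlg2 and Vcan kept their direction in all settings run, at 0.65 and 0.38 without cluster 2. Against Pi16 fibroblasts, DESeq2 called 133 higher and 150 lower, no replicate block 45 and 45, and no filter on low counts 455 lower. Against ligament-type fibroblasts, DESeq2 called 188 and 185, and no replicate block 91 and 94. Between libraries, a minimum of 50 UMIs left 114 genes 2-fold higher in RP and 46 in 377P; the gate of 20 counts gave 196 in RP, and cluster 4 alone 93 in RP, where Cemip reversed to 0.67. The share of Pcsk2-positive cells was 4.62% in RP and 9.63% in 377P at 2 UMIs, 13.8% and 21.3% with the gate of 20 counts, and 7.87% and 13.1% after thinning. It was lower in RP in each of these settings. Leaving out either library moved 7 to 9 of the 28 single genes by more than their counting error, and no called gene reversed.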

Other observations

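Further gene lists were read in the comparison of Pcsk2-positive with Pcsk2-zero fibroblasts, beside 4.54% of all genes higher and 3.65% lower by edgeR. Of 9 markers of papillary and reticular dermal fibroblasts, 4 were higher (Dkk2, Apcdd1, Axin2 and Crabp1) and 2 lower (Mgp and Plac8). Of 8 markers of synovial lining, Prg4 was called higher, with a log2 ratio of 0.56 that was 0.09 in 377P alone, -0.21 with a gate of 20 counts and -0.96 without cluster 2, and the call was lost by DESeq2, without the block, with Pcsk2 of at least 2 UMIs and with depth-matched cells. In the same list Htra4, Has1 and Cd55 were lower. Of 15 complement genes, Masp1 was higher and 5 were lower, among them C3, with 393 CPM in RP and 417 CPM in 377P against 411 and 614 CPM. Of 24 immediate early and heat shock genes, Nr4a1, Nr4a2 and Klf4 were higher and 5 lower. Of 23 interferon response genes none was higher and 4 were lower (Irf8, Ifi27l2a, Iigp1 and B2m).

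Pcsk2os1, an antisense neighbour of Pcsk2, had 34 UMIs in Pcsk2-positive cells of RP and 42 in those of 377P, at 19.5 and 27.9 CPM, against 0.997 and 0.675 CPM in Pcsk2-zero cells. When all kept cells of both libraries were clustered, 172 of the 547 Pcsk2-positive cells fell in a cluster of 615 cells whose leading genes included Lrrtm4, Pcsk2, Myoc, Prg4 and Dlg2. In that cluster Pcsk2 had 245 CPM in RP and 649 CPM in 377P. A cluster of 103 cells led by Fstl5, Cntn4 and Calb2 had 22.5 CPM in RP and 25.2 CPM in 377P.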
